A study of Mus musculus with 4 samples.

Results

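Nodal, its co-receptor, its antagonists and the SMAD proteins that carry its signal were followed as a set of 9 genes: Nodal, Lefty1, Lefty2, Tdgf1, Cer1, Skil, Smad2, Smad3 and Smad4. The set consists of every probe set whose platform gene symbol is one of these names. This gave 14 probe sets for 8 of the 9 genes, out of 22690 probe sets and 12393 named genes on the array. No probe set was assigned to Lefty2, which was not analysed here. The members were chosen by their role in the pathway and with the opposite differences of Nodal and Lefty1 between these same arrays in view, so the members' values are given as a description, without a test.

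RNA came from 4 samples of R1 cells, a mouse embryonic stem cell line, each hybridised to 1 Affymetrix array. The knockdown group (2 arrays) received a lentivirus whose short hairpin RNA (shRNA) targets Brg1, the Smarca4 product and motor subunit of SWI/SNF, a family of complexes that move nucleosomes. The control group (2 arrays) received a lentivirus whose shRNA targets the glucose transporter GLUT4, encoded by Slc2a4. Both groups were thus exposed to a lentivirus carrying an shRNA and were collected 67 h after infection, and the share of cells infected was not analysed here. Per the series' design text each infection was done in duplicate. Hairpin sequences were not used here, and the arrays measured RNA, not protein. The p-values and SEs cover no spread beyond that between such duplicates. For each gene that spread was moderated towards the spread of all fitted genes of like signal, so neither reflects the gene's own duplicates alone.

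Nodal is a secreted ligand of the TGF-beta family that keeps the epiblast pluripotent and later induces mesoderm and endoderm. It signals through activin receptors together with a co-receptor of the EGF-CFC family, encoded by Tdgf1 (Cripto), and causes SMAD2 and SMAD3 to be phosphorylated, to join SMAD4 and to enter the nucleus. There they act with FOXH1 on target genes, among which are Nodal itself, through an intronic enhancer, and its antagonists Lefty1 and Lefty2, so that the ligand feeds both a positive and a negative loop. SKIL (SnoN) represses SMAD targets in the nucleus, and CER1 (Cerberus) binds Nodal outside the cell.

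The promoter windows of the ligand and the co-receptor are printed because the RNA of the ligand differed most among the members while that of its co-receptor did not separate the groups. Windows of 4 of the 9 members, Nodal, Tdgf1, Cer1 and Smad3, were used here, taken from RefSeq (build GRCm38.p6), each with 250 bases before and 50 bases after the annotated start. The Nodal window is chr10:61417722-61418021 on the plus strand and the Tdgf1 window is chr9:110946109-110946408 on the minus strand. Capitals mark letters that match the FOXH1 motif AATNNACA or the SMAD box CAGAC.
Nodal: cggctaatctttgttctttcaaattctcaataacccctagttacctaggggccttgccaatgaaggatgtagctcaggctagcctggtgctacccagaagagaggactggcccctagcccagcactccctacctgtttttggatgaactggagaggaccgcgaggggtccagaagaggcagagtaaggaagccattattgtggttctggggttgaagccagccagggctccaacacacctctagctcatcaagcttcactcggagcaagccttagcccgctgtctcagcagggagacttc
Tdgf1: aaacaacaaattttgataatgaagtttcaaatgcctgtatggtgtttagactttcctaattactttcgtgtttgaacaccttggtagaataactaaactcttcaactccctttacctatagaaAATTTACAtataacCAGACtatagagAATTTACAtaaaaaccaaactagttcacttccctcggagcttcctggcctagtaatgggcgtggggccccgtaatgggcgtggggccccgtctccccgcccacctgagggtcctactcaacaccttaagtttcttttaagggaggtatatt
The Tdgf1 window held 2 FOXH1 matches with 1 SMAD box between them. Both FOXH1 matches read AATTTACA, and the motif as searched allows any base at its NN positions. The Nodal window held neither motif, and none of the other motifs searched on both strands, which were the SMAD palindrome GTCTAGAC, RBPJ TGGGAA, OTX TAATCC, KLF CACCC, the octamer ATGCAAAT and SOX CATTGT. Over all 32851 windows of this length, 12.2% held a FOXH1 match, 49.6% a SMAD box, 0.213% the SMAD palindrome, 25.6% the RBPJ motif, 7.06% the OTX motif, 57.5% the KLF motif, 1.74% the octamer and 12.6% the SOX motif. In the other windows, Cer1 held 1 SMAD box, and Smad3 held 1 RBPJ and 1 KLF match. These matches describe letters in a short window, and no factor's binding was measured.

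The deposited values are signals on a linear scale, already brought by the authors to one common trimmed mean on all 4 arrays. Differences are given as knockdown minus control on the scale of log2(signal + 20.0), which understates the change of dim genes. A probe set counted as measured above the low-value filter when its mean over the 4 arrays reached the 40th percentile of the array, a signal of 23.9. The shRNA target Smarca4 had a signal of 652.1 and 621.5 in the knockdown and of 1186.6 and 1213.6 in the control, so its RNA was lowered in part (limma, log2 difference -0.89 ± 0.08 SE, adjusted p = 0.000232). Slc2a4 lay below the filter, at 20.9 and 23.9 against 11.7 and 19.2. All 8 embryonic stem cell markers on the array, among them Pou5f1, Sox2 and Nanog, lay above the filter. Their summed signals were 16481.1 and 16360.7 in the knockdown and 15043.7 and 15326.5 in the control. Of the 8, 3 passed as higher in the knockdown and 0 as lower (limma, adjusted p under 0.05). These were Nanog, Fgf4 and Esrrb, with log2 differences of 0.87, 0.52 and 0.38. Across all genes tested, 14.4% changed between the groups (1127 of 7815 with limma at an adjusted p under 0.05), with 9.33% higher in Brg1 knockdown cells and 5.09% lower.

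Nodal, the ligand, was much higher in the knockdown on both of its probe sets. The brighter one (1422058_at) read 908.8 and 941.1 in the knockdown and 297.1 and 324 in the control, a ratio of means of 2.98 and a log2 difference of 1.52 ± 0.09 (SE). The dimmer one (1422057_at) read 620 and 718.2 in the knockdown and 155 and 153.1 in the control, a ratio of 4.34 and a log2 difference of 1.98 ± 0.11. On both probe sets every knockdown array lay far above every control array. For the brighter probe set the arrays of a group stood 0.05 apart in the knockdown and 0.12 apart in the control on the log2 scale, a small part of the distance between the groups. Among the 7815 genes tested, Nodal had the 16th largest rise, which is a description of the value that brought it into the set.

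Tdgf1, the co-receptor that Nodal needs, had a mean signal at or above those of 97.2% of all probe sets and did not separate the groups. It read 1863.6 and 1656.4 in the knockdown and 2008.6 and 1830.2 in the control, and the first knockdown array lay above the second control array. The log2 difference was -0.12 ± 0.08 (SE), and its sign depends on the scaling: it was 0.20 with the arrays scaled to their spike-ins (foreign transcripts added at hybridisation), a setting that raises the median of all tested genes to 0.33, against 0.04 as deposited.

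Lefty1, which blocks Nodal from its receptors and is itself switched on by SMAD2 and SMAD3, was lower in the knockdown. Its probe set (1417638_at) read 619.4 and 601.2 in the knockdown and 858.2 and 932.3 in the control. The groups did not overlap, and the control was 1.47 times the knockdown by ratio of means, a log2 difference of -0.54 ± 0.08 (SE). The arrays of a group stood 0.04 apart in the knockdown and 0.12 apart in the control. The spike-ins themselves averaged 9.44 and 9.14 (log2 signal) in the knockdown and 9.67 and 9.57 in the control. With the arrays scaled to them the Lefty1 difference was -0.22. Lefty1 and Lefty2 are close paralogs, and whether the Lefty1 probe set also binds Lefty2 RNA was not tested.

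Cer1, the other secreted antagonist, was at the bottom of the signal range in both groups. Its probe sets read 2.4 and 9.4 (1450256_at) and 2 and 1.6 (1450257_at) in the knockdown, and 4.9 and 1.3 and 0.5 and 0.5 in the control. All of these lie below the filter level of 23.9, so no fold is given, and Cer1 was the 1 member with probe sets that was not fitted.

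**Figure D1:**
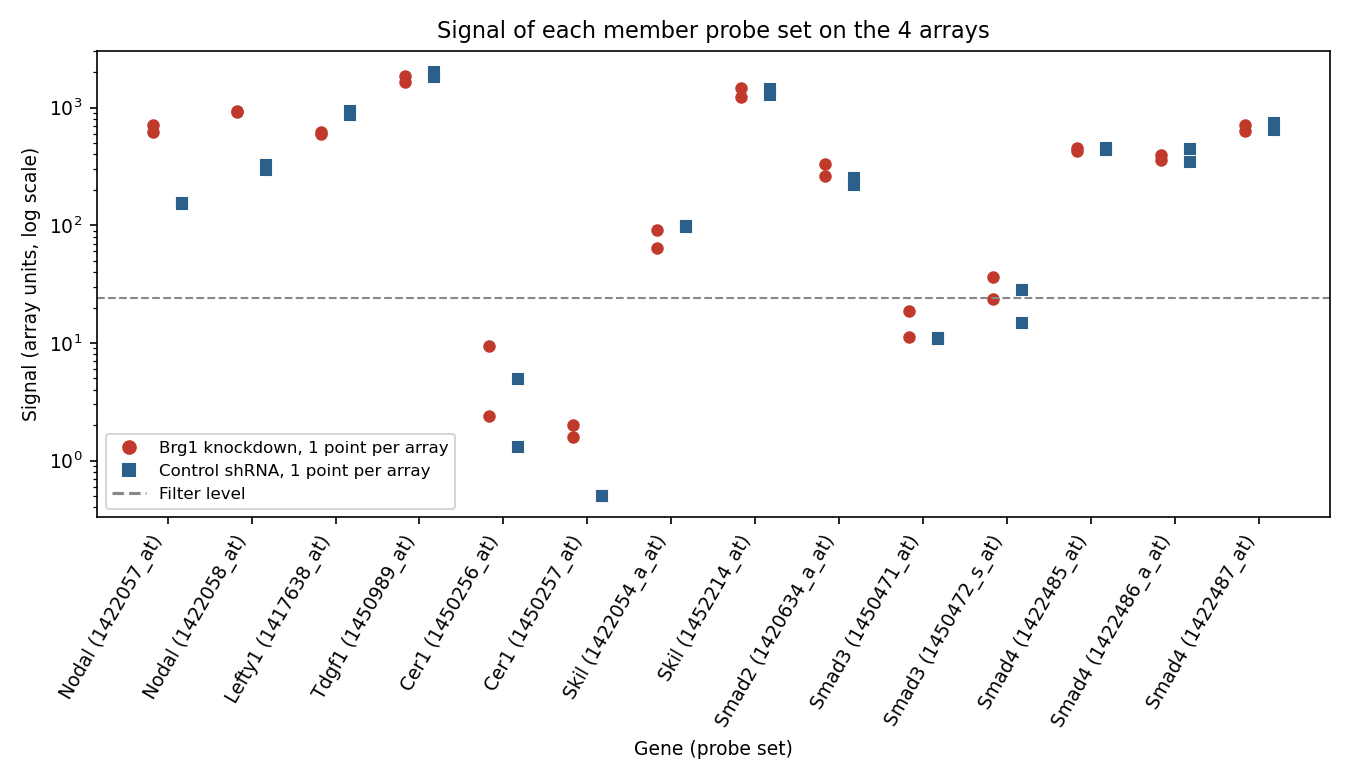
Signal of the 14 member probe sets on each array (vertical axis, array units, log scale), with knockdown arrays as circles and control arrays as squares, and the filter level of 23.9 as a dashed line. Both Nodal probe sets have all knockdown points above all control points, Lefty1 has the reverse order, and Cer1 lies below the filter.

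Smad2, which carries most of the Nodal signal in the early mouse embryo, read 264 and 330.4 in the knockdown and 220.2 and 254.3 in the control. The groups did not overlap, but the lower knockdown array and the higher control array differed by 0.05 on the log2 scale, and the knockdown arrays differed from each other by 0.30. The log2 difference was 0.30 ± 0.13 (SE).

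Smad3 was dim. Its brighter probe set (1450472_s_at, of a kind that can bind transcripts of several genes) read 36.3 and 23.6 in the knockdown and 14.7 and 28 in the control, so the groups overlapped. The log2 difference was 0.28 ± 0.22 (SE), and the control mean of 21.4 lay below the filter, which the gene passed through its mean over all arrays. The other probe set read 11.3 and 18.6 against 10.8 and 11.1, below the filter throughout.

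Smad4, the partner shared with BMP signalling, did not separate the groups on any of its 3 probe sets. The brightest (1422487_at) read 705.6 and 637.2 in the knockdown and 737.4 and 640.2 in the control. A second (1422485_at) read 449.5 and 430.3 against 438.8 and 451.1, and the last (1422486_a_at) read 393.2 and 356.7 against 448.5 and 346.3. The groups overlapped on all 3, with log2 differences of -0.03 ± 0.10, -0.02 ± 0.09 and -0.07 ± 0.13 (SE).

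Skil, a nuclear repressor of SMADs that TGF-beta and activin signals switch on, was read on a bright and a dim probe set. The bright one (1452214_at) read 1455.1 and 1235.9 in the knockdown and 1431.3 and 1290.2 in the control, overlapping, with a log2 difference of -0.02 ± 0.10 (SE). The dim one (1422054_a_at) read 64.3 and 91.5 in the knockdown and 97 and 98.1 in the control, a log2 difference of -0.28 ± 0.16. There the knockdown was lower, but the gap between the knockdown arrays (0.40) was larger than the difference between the groups.

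Of the 8 members with probe sets, 7 passed the filter. Of the 11 member probe sets above the filter, 5 had groups that did not overlap, against 58.4% of all probe sets above the filter. Of the 11, 3 lay without overlap above the control, against 30.6% of all probe sets above the filter, and 2 lay without overlap below it, against 27.8%. Counting all 14 probe sets, 7 did not overlap, against 49.7% of the probe sets on the array that are not controls. The members were chosen with this comparison known, so nothing is read from these shares.

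**Figure D2:**
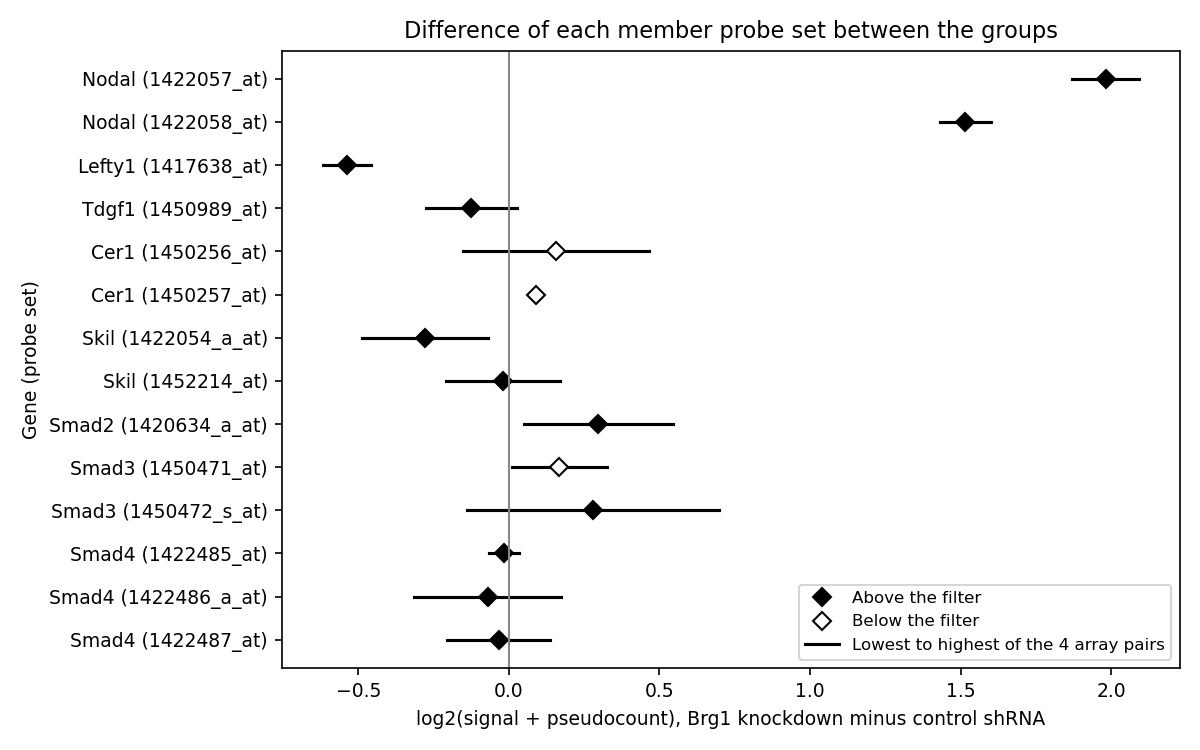
Difference of each member probe set on the scale of log2(signal + 20.0), knockdown minus control (horizontal axis), with the range over the 4 pairs of a knockdown and a control array as a line; open symbols are below the filter. The Nodal probe sets lie at 1.52 and 1.98 and Lefty1 at -0.54, while Tdgf1, Smad4 and the bright Skil probe set have lines that cross 0.

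The distance between Nodal and Lefty1 was also taken within each array, where a common scale factor cancels. Without a pseudocount, the log2 ratio of Nodal (1422058_at) to Lefty1 was 2.13 higher in the knockdown than in the control, and between 2.08 and 2.18 higher over the 4 pairs of a knockdown and a control array. This is a 4.37-fold shift of one RNA relative to the other. With the dimmer Nodal probe set the shift was 2.67, from 2.47 to 2.86 over the pairs, or 6.35-fold. Such a ratio shows that the RNAs changed unequally, not that either one stayed level. On the log2(signal + 20.0) scale the difference of Nodal minus that of Lefty1 was 2.05. Under the processing alternatives it lay between 1.95 and 2.29, but 5 of these cannot change a difference of means. Centring the arrays on their medians shifts both genes alike, so it cannot change this gap either (2.05). Scaling to the spike-ins can move the gap only through the pseudocount (2.05). Without each array in turn, Nodal lay between 1.46 and 1.58 and Lefty1 between -0.60 and -0.48.

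**Figure D3:**
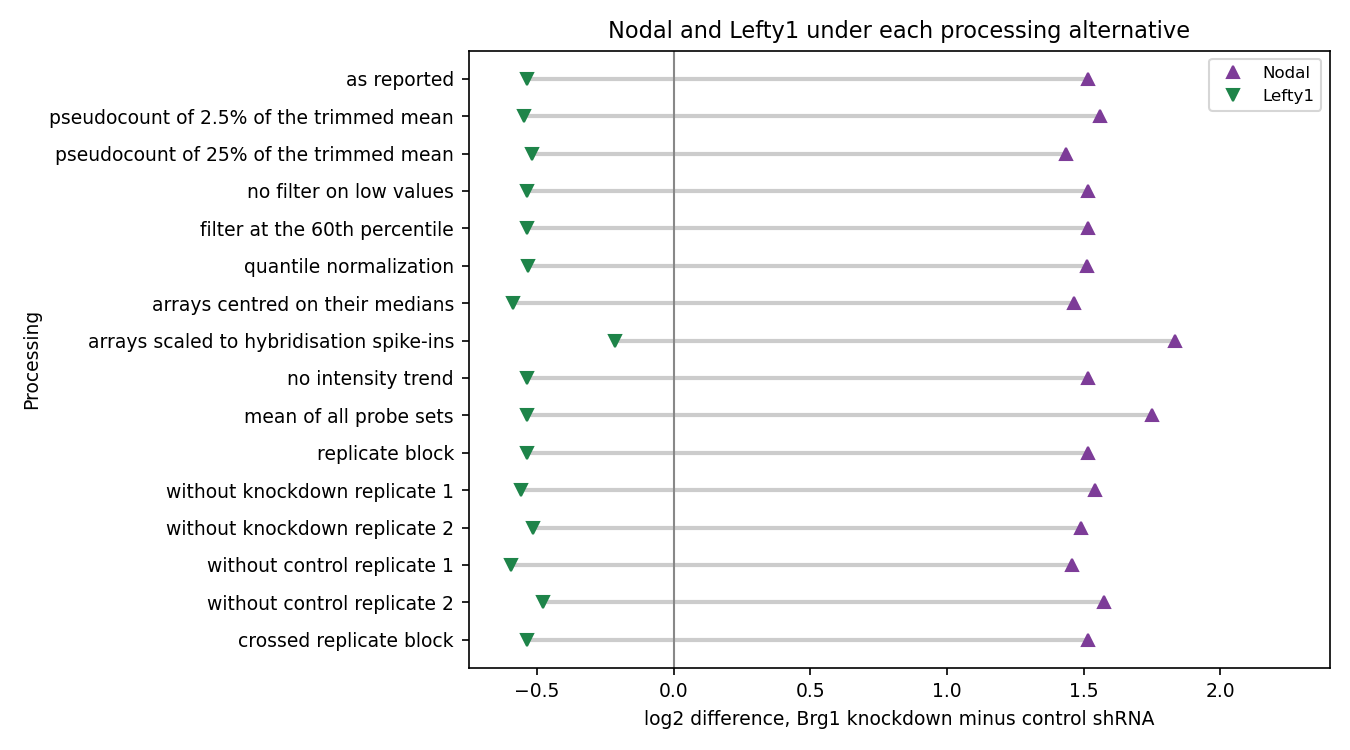
Log2 difference of Nodal (upward triangles) and Lefty1 (downward triangles), knockdown minus control, as reported and under each processing alternative (rows). Nodal stays between 1.44 and 1.83 and Lefty1 between -0.60 and -0.22, with Lefty1 closest to 0 under the scaling to hybridisation spike-ins.

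Markers of mesendoderm, primitive and visceral endoderm, trophoblast and fibroblasts were examined beside these values. Of 6 mesendoderm markers on the array, Eomes and Foxa2 lay above the filter, and the summed signal of the 6 was 134.3 and 134.6 in the knockdown against 62.2 and 91.3 in the control. Of 8 primitive and visceral endoderm markers only Dab2 did, with sums of 198.2 and 208 against 182 and 196.5, while Ttr and Afp were at or below 7.6 on every array. Of 5 trophoblast markers Eomes and Hand1 did, with sums of 122.9 and 143.7 against 59 and 74.6, and Gata3 was at or below 2.2. Of 8 fibroblast markers only Thy1 did, with sums of 98 and 119.6 against 104.8 and 104.4. The mesendoderm and trophoblast sums were thus higher in the knockdown. Both sums include Eomes, so they are not independent. The control means of Foxa2 (13.1) and Hand1 (20.25) lay below the filter level, which these genes passed through their knockdown arrays. The part of these cell types in the values of Nodal and Lefty1 was not tested. In such bulk RNA, fewer cells of a type and less RNA per cell cannot be told apart.

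The rest of the pathway was read from 8 lists of genes, which hold none of the 9 members. The lists were chosen with earlier results of these data known, so nothing is read from their shares or counts given below. Of 82 listed genes, 71 were on the array and 49 were tested. Of these, 8 were higher and 2 lower in the knockdown past the test and 39 were not past it (limma, adjusted p under 0.05), or 16.3% and 4.08% beside 9.33% and 5.09% of all tested genes. Of the 8, Foxa2 passed the filter through its knockdown arrays alone, and 7 rose with both group means above the filter level. The median log2 difference of the 49 was 0.10, against 0.04 for all tested genes. Without control replicate 1 only 4 rose, and without knockdown replicate 2 there were 5 that rose and 1 that fell. Without control replicate 2 there was also 1 that fell. Without the filter on low values 3 rose and 1 fell, and Acvr2b, Bmp4, Dll1, Foxa2, Inhbb and Rnf111 were not past the threshold (adjusted p between 0.0636 and 0.107).

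Among other ligands and the convertases that cut Nodal's precursor, 1 of 5 tested genes rose and 0 fell (median 0.17). Inhbb, the beta-B chain of activin B, which uses the same type II receptors as Nodal, read 82 and 91.4 in the knockdown and 36.7 and 53.9 in the control. It rose by 0.72 ± 0.17 log2 units (SE; adjusted p by limma = 0.0209). Its dimmer probe set gave 0.22 with an adjusted p of 0.471 when every probe set was fitted with limma by itself, a fit in which 9.13% of probe sets passed. Inhbb did not pass when knockdown replicate 2 (adjusted p = 0.0545) or control replicate 1 (0.103) was left out, nor with the mean of its probe sets (0.0521). Gdf3, a related ligand of embryonic stem cells, read 748.5 and 799 against 836.3 and 858.2 (log2 difference -0.13, adjusted p = 0.315). Furin and Pcsk6, which encode Nodal convertases, had differences of 0.33 and -0.05 (adjusted p = 0.222 and 0.844).

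Of 5 tested receptor genes, 1 fell and 0 rose (median -0.04). Acvr2b, a type II receptor for Nodal and activin, read 203.8 and 186.7 in the knockdown and 256.8 and 318 in the control, which is -0.51 ± 0.12 log2 units (SE; adjusted p by limma = 0.0252). It did not pass when knockdown replicate 2 (adjusted p = 0.0735) or control replicate 2 (0.12) was left out, without the intensity trend (0.0581), or with the spike-in scaling (0.495). Acvr1b, the type I receptor ALK4, read 161.3 and 131.3 against 175.2 and 172.8, a difference of -0.23 (adjusted p = 0.248), and Acvr2a gave -0.04 (0.844). Cfc1 (Cryptic), the other EGF-CFC co-receptor, was dim at 46.1 and 50.9 against 32.9 and 30.4 and did not pass (0.41, adjusted p = 0.11).

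None of the 11 tested inhibitors passed the test with limma in either direction (median 0.005), and none had an unadjusted p under 0.05. Smad7, the inhibitory SMAD that is induced by the pathway, read 224.2 and 184.1 in the knockdown and 185 and 232.2 in the control, with overlapping groups and a log2 difference of -0.03 ± 0.14 (SE; adjusted p = 0.916). Pmepa1, another target that limits SMAD activity, gave -0.01 (0.965). A dimmer Pmepa1 probe set above the filter read 26.4 and 8.9 in the knockdown against 24.3 and 43.8 in the control. It gave -0.54, with an adjusted p of 0.225 in the limma fit of single probe sets. Tmeff1, which binds Cripto, and Bambi, a decoy receptor, had the smallest p of the list at the brightest probe sets. Their differences were -0.28 and -0.23 (limma, adjusted p = 0.287 and 0.292), and lay at 0.011 and 0.047 with the spike-in scaling. 

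Of 7 SMAD2 and SMAD3 partners and positive regulators, 1 rose and 0 fell (median 0.10). Rnf111 (Arkadia), a ubiquitin ligase that removes SKIL, SKI and SMAD7, read 416.9 and 439.6 in the knockdown and 342.9 and 308.4 in the control, higher by 0.38 ± 0.10 log2 units (SE; adjusted p by limma = 0.0336). Rnf111 did not pass when knockdown replicate 2 or control replicate 2 was left out (adjusted p = 0.129 in both cases), with quantile normalization (0.05002), with arrays centred on their medians (0.0513) or without the intensity trend (0.072). Foxh1, the DNA-binding partner on Nodal and Lefty enhancers, read 253.7 and 240.9 against 177.1 and 243.2, overlapping, with a difference of 0.23 (0.295). Its other probe sets gave 0.05 and -0.13, with adjusted p of 0.848 and 0.66 in the fit of single probe sets.

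Response genes of the streak and endoderm were mostly dim. Of 7 on the array, 2 were tested (median 0.63), and only Foxa2 was past the threshold. Foxa2, a transcription factor of endoderm, read 35.7 and 51.9 in the knockdown against 9.9 and 16.3 in the control (log2 difference 0.94 ± 0.20, SE; limma, adjusted p = 0.0139). Because its control mean of 13.1 lay below the filter level, Foxa2 entered the test only through the arrays where it was high, and nothing is read from its p-value. It was not past the threshold without control replicate 1 (adjusted p = 0.0596), and without either knockdown array it fell below the filter and was not tested. Eomes did not pass (0.32, adjusted p = 0.236), and Gsc, Mixl1, Lhx1 and Fgf8 were at or below 12.7 on every array. Sox17 lay below the filter by its mean and was not tested. It read 31.1 and 22.8 in the knockdown against 14.9 and 19.4 in the control. Its second probe set read 14.4 and 18.8 against 9 and 6.7. Of 4 tested genes known as SMAD3 targets of TGF-beta, 0 rose and 0 fell (median 0.20). Ccn2 had the smallest p, at 581.3 and 601.2 against 450.5 and 502.3 (0.30, limma, adjusted p = 0.0557). It passed with the spike-in scaling (0.0363) and with averaged probe sets (0.0471). Ccn2 has 1 probe set, so averaging left its difference at 0.30 and changed only other genes in the fit. Without control replicate 2 the Ccn2 difference was 0.38. Cdkn1a had the next smallest p, at 0.19 (0.295), with 0.82 on a dimmer probe set (0.149 in the fit of single probe sets).

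Of 9 tested regulators of Nodal or Lefty1 transcription, 4 rose and 1 fell (median 0.15). Rbpj, the DNA-binding factor of Notch signalling that Nodal needs at the node, read 935.1 and 946.3 in the knockdown and 517.6 and 489.6 in the control. Its log2 difference was 0.88 ± 0.08 (SE; limma, adjusted p = 0.000299), and its second probe set gave 1.03. Dll1, a Notch ligand, read 91.1 and 87.7 against 40.2 and 59.5, a difference of 0.66 ± 0.16 (adjusted p = 0.0276, and 0.148 without control replicate 1), while the receptor Notch1 gave 0.15 (0.532) and, on its dimmer probe set, -0.20. Rbpj and Dll1 thus passed the test and Notch1 did not, and the differences of these genes were not compared with each other.

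Of the pluripotency factors in the same list, Nanog and Klf4 rose. Nanog read 1040 and 1003.1 in the knockdown and 564.7 and 533.6 in the control (log2 difference 0.87 ± 0.08, SE; limma, adjusted p = 0.000299). Klf4, which acts with Pou5f1 and Sox2 on the Lefty1 promoter in mouse embryonic stem cells, read 350.8 and 308.5 against 164.6 and 210.3, higher by 0.76 ± 0.13 log2 units (SE; adjusted p by limma = 0.00554), and 0.81 on its second probe set. Klf4 was thus higher in the samples in which Lefty1 was lower, as was every gene that rose in the knockdown. A link between Klf4 and Lefty1 was not tested. Pou5f1 and Sox2 did not pass (0.01 and -0.22, adjusted p = 0.95 and 0.125). Otx2, a factor that acts on Lefty1 in the anterior visceral endoderm, fell to 236.2 and 222.8 in the knockdown, against 449.2 and 439.6 in the control (-0.90 ± 0.10, SE; adjusted p = 0.000511, and 0.0503 with the spike-in scaling). Ctnnb1, the effector of Wnt signalling, gave 0.01 (0.914).

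Of the BMP branch, which shares Smad4, 1 of 6 tested genes rose and 0 fell (median 0.16). Bmp4, its main ligand in the early embryo, read 69 and 63.6 in the knockdown and 30 and 39.2 in the control, higher by 0.66 ± 0.16 log2 units (SE; adjusted p by limma = 0.024, and 0.123 without control replicate 1). Its receptor SMADs Smad1 and Smad5 gave -0.25 and 0.19 (adjusted p = 0.17 and 0.475), and the receptor gene Bmpr1a gave -0.04 (0.817).

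**Figure D4:**
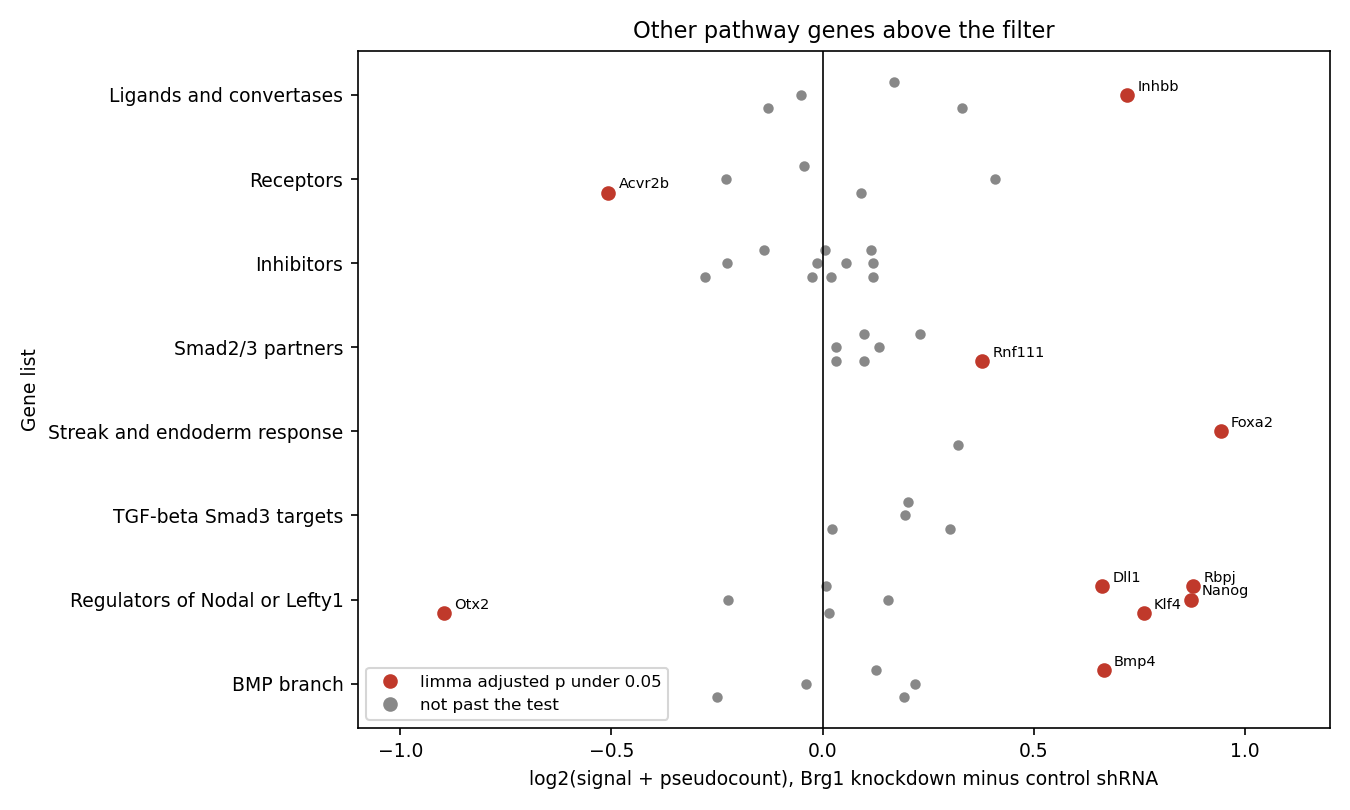
Log2 difference, knockdown minus control (horizontal axis), of each tested gene in the 8 pathway lists (rows), 1 point per gene. Each gene is shown by its brightest probe set, and labelled points passed the test. The 4 labelled rises among the regulators of Nodal or Lefty1 lie between 0.66 and 0.88 and Otx2 at -0.90, while the 11 inhibitors lie between -0.28 and 0.12.

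The genes most like Nodal and Lefty1 were taken as those with the smallest Euclidean distance between gene-centred log2 values over the 4 arrays. Nearest to Nodal were Rgs2 (distance 0.08 on the log2 scale), Jam2 (0.08), Manba (0.09), Man2b1 (0.10) and Eng (0.16). Jam2, a junctional adhesion protein, read 452 and 471.9 in the knockdown and 130.6 and 150 in the control, and Eng (endoglin), a co-receptor for TGF-beta ligands, read 267.8 and 267.1 against 88.2 and 96.1. Their log2 differences were 1.59 and 1.36, beside 1.52 for Nodal. Rgs2 read 85.7 and 86.5 in the knockdown against 17.7 and 18.7 in the control, a log2 difference of 1.47. Its control mean of 18.2 lay below the filter level, which Rgs2 passed through its knockdown arrays. The pseudocount understates its change more than that of Nodal, so its place depends on the pseudocount. Nearest to Lefty1 were Pkig (0.04), Glrx (0.05), Tjp3 (0.05), Mapk12 (0.06) and Ubr7 (0.06), with log2 differences between -0.57 and -0.49. With 4 arrays in 2 groups, this measure mostly ranks genes by the size of the difference between the groups.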

How the data were processed

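Per the submitters' processing notes, the authors used the Affymetrix software GCOS. The deposited table holds linear intensity values, 1 for each probe set on an array, and its trimmed means (2% left out at each end) were equal on the 4 arrays. No version of GCOS and no signal algorithm is named in the labels, and detection calls were not used. Of 22690 probe sets, 64 were controls, 20380 had 1 gene, 691 several and 1555 none. Symbols were updated by Entrez ID through RefSeq (GRCm38.p6), which held 20351.

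Here log2(signal + 20.0) was used without further normalization, the pseudocount being 10% of the trimmed mean. A gene was represented by its probe set of highest mean (_x_at sets only where it had no other), and 7815 of 12393 genes passed the filter at the 40th percentile. Groups were compared with limma 3.58.1 (lmFit, eBayes with intensity trend, two-sided) in R 4.3.3, with Benjamini-Hochberg adjustment over all tested genes. The fit was tested on simulated data. Alternatives changed the pseudocount, filter, scaling, variance model, probe set choice, threshold and replicate block, and left out each array. Figures used matplotlib 3.10.9.

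The members and lists were chosen with earlier results of these data known, and members were part of the fit over all genes but are given without p-values or calls. Named pathway genes are those past the threshold in each list (at most 6), otherwise the 2 of smallest p. Other genes named with values (Gdf3, Furin, Pcsk6, Acvr1b, Acvr2a, Cfc1, Smad7, Pmepa1, Foxh1, Eomes, Sox17, Hand1, Notch1, Pou5f1, Sox2, Ctnnb1, Smad1, Smad5 and Bmpr1a) were picked with their values known, that is, chosen after seeing them. Ppm1a, Esrrb and Fgf4 were likewise named after their values were seen. The number of arrays limits the precision.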

Additional observations from a re-analysis of the deposited data

How the results depend on the processing

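Of 15 alternatives, 5 (both other filter settings, no intensity trend and both replicate blocks) cannot change a difference of means, and the other 10 left Nodal above 0 and Lefty1 below 0. Nodal was 1.44 with the pseudocount of 25% of the trimmed mean, 1.75 with the mean of its probe sets and 1.83 with the spike-in scaling, where Lefty1 was -0.22. That scaling was also the one with the largest effect on directions: 1413 genes were called higher and 30 lower, 10 pathway genes rose and 0 fell, and Bambi (0.047) and Tmeff1 (0.011) changed sign. With arrays centred on their medians, 622 genes were called higher and 598 lower. Without the filter 433 genes were called (324 higher, 109 lower), with 3 pathway genes rising and 1 falling. A threshold of 0.01 gave 393 (291 and 102), again with 3 and 1. Without the intensity trend 219 genes were lower and 1 pathway gene fell, and with the filter at the 60th percentile 4 pathway genes rose. Leaving out each array gave 649 to 1265 genes called (436 to 795 higher, 213 to 470 lower), with 4 to 8 pathway genes rising and 1 to 3 falling. The cause of these shifts was not tested.

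The groups share replicate numbers, but the deviations of same-numbered arrays were only weakly correlated, and negatively, across tested genes (r = -0.14), so the numbers were not taken to pair the samples. With the replicate number as a block, 1187 genes were called and 8 pathway genes rose and 2 fell. A crossed block, added after seeing the data, gave 1478, with Ccn2 past the threshold (adjusted p = 0.0375). Signals near the filter, such as those of Smad3 and Cer1, limit what can be said of these members.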
